A study of Drosophila melanogaster with 6 samples.

Results

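The major facilitator superfamily is a large group of membrane transporters, and its RNA was measured here in infected flies that overexpressed a long noncoding RNA. Its members were chosen by the domain name MFS_1 in the annotation column of the deposited gene table, which gave 80 of 15656 genes. No value of a library was used to pick a gene, but the family itself was put forward with the contrast between these groups known, so the calls of its members are given as a description and no test of the family was made. Of the 80 genes, 78 passed the filter on low values, and 2 (CG30265 and CG3649) did not, because their mean lay under 0.5 FPKM (reads scaled to gene length and library total). Overexpressing flies had the genotype Gal80ts; Tub>lncRNA-CR33942 and gave 3 libraries, and control flies had the genotype Gal80ts; Tub-Gal4/P{CaryP}attP40 and also gave 3. Both genotypes therefore carried the Gal4 driver of the tubulin promoter, which is active in nearly all cells, and Gal80ts, a repressor of Gal4 that fails at high temperature. Flies of both genotypes were adult males aged 3 to 5 d that grew up at 18°C, spent over 24 h at 29°C, were injected in the thorax with *E. coli* and were collected 12 h later. No uninfected flies were part of the comparison, so the values say nothing of what infection itself did to these genes. Poly(A) RNA of whole flies was sequenced, the labels do not say whether the libraries came from separate groups of flies, and the study's methods speak of 3 independent replicates for its experiments in general. The p-values measure the spread between these libraries.

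Transporters of this superfamily are single proteins with many membrane-spanning helices that expose a binding pocket first to one side of a membrane and then to the other. They move sugars, lactate and other monocarboxylates, phosphate, organic ions, neurotransmitters and lysosomal breakdown products, some by running with a proton or sodium gradient and some by facilitated diffusion. In the fly they work in the gut, the Malpighian tubules, the blood-brain barrier, glia, synaptic vesicles, the eye and lysosomes. Sugar carriers of the same fold, such as trehalose and glucose transporters, carry another domain name (Sugar_tr) in such annotations and are counted apart here.

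The values are normalized counts, that is reads per gene divided by 1 size factor per library. The libraries held 17400880 to 18792130 counted reads in overexpressing flies and 16894595 to 19423287 in control flies, and the most abundant gene took 5.6% to 6.5% of them. Over the 13196 genes tested with limma, 420 were higher and 691 lower in overexpressing flies at an adjusted p under 0.05 (632 and 503 when libraries were scaled to their totals), and the median log2 fold change was 0.0059. The overexpressed RNA itself, listed under its older symbol pncr016:2R, had 4636 ± 244 normalized counts in overexpressing flies and 197 ± 17.1 in control flies (SD, n = 3 each), so the labels of the libraries hold for the transgene. Gene positions are those of the deposited table, on the fly genome build dm6 that the submitters' notes name.

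Among the transporters the called changes were small and mostly downward. RNA of 12 members fell in overexpressing flies, with log2 fold changes between -0.74 (CG14439) and -0.23 (CG8602), and RNA of 3 members rose, by 0.35 (MFS18) to 0.46 (CG8046) on that scale. The lower set held 4 carriers of the monocarboxylate type, the phosphate cotransporter NaPi-T, the lysosomal carriers spin and CG8596, and the sucrose carrier Slc45-1. None of the 15 called members changed by 2-fold or more. The other 63 tested members were not called.

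In numbers, 3 of 78 tested members were called higher, 3.85%, where 3.18% of all genes tested were. Lower calls were made for 12 of 78, 15.4%, where 5.24% of all genes tested were lower, and either call for 19.2%, where 8.42% of all genes tested had one. Since the family was proposed from this contrast, nothing is read from these shares. Over the 78 tested members, 48 log2 fold changes were negative and 30 positive, the median was -0.05, 29 lay within 0.1 of 0 and 59 within 0.25. The unadjusted p from limma was under 0.05 for 21 of the 78 members, where it was for 2932 of the 13196 genes tested. Every overexpression library lay below every control library in 22 members, where 14.4% of all genes tested did so, and above in 6, where 12.9% of all genes tested did so. All 15 called members were among these 28. With 3 libraries against 3, an exact two-sided permutation test of a single gene cannot go below p = 0.1, so the calls rest on limma's spread pooled over genes.

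**Figure D1:**
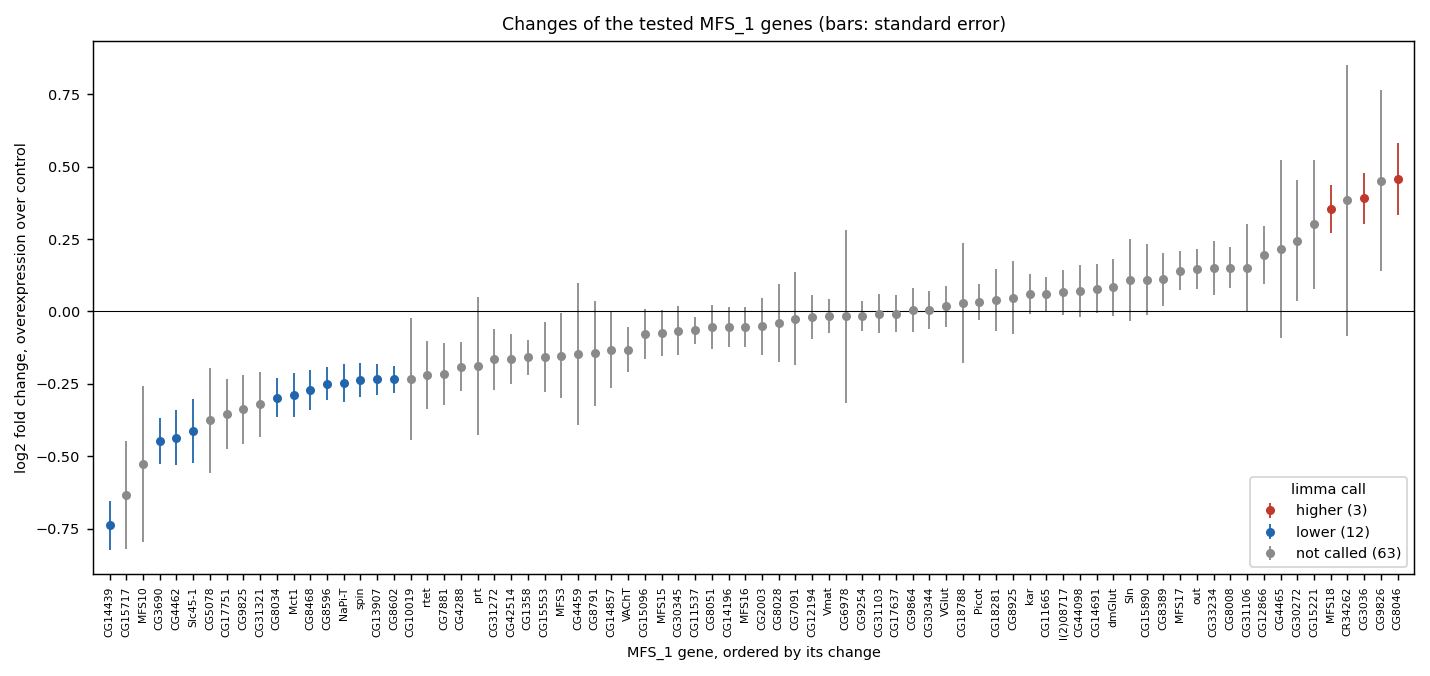
Log2 fold change (overexpression over control, y axis) of the 78 tested MFS_1 genes in rank order (x axis), with bars for the standard error. The 12 lower genes in blue begin with CG14439 at -0.74 and the 3 higher genes in red end with CG8046 at 0.46, and the widest bars belong to genes with few reads such as CR34262.

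Levels per gene length differed far more between members than between genotypes. The mean over the 6 libraries had a median of 10.5 FPKM over the 80 members, 17 members lay over 20 FPKM and 13 under 2 FPKM. CG9254, a carrier of the phosphate and glutamate type, stood highest at 132 FPKM, 12.6 times the median member, and it held 11.7% of the summed FPKM of the family. It had 4147, 3749 and 4005 normalized counts in overexpressing flies and 3995, 4101 and 3926 in control flies, and the groups overlapped. Picot, a putative inorganic phosphate cotransporter, came next with 55.9 FPKM. Its values were 3215, 3085 and 3706 normalized counts in overexpressing flies and 3256, 3219 and 3282 in control flies, which also overlapped. CG30344 was the other of the 8 most abundant members without a call, at 31.7 FPKM, with 1141, 1333 and 1209.6 normalized counts in overexpressing flies and 1165, 1257 and 1241 in control flies. The log2 fold changes of CG9254, Picot and CG30344 were -0.02, 0.03 and 0.01, so RNA of these abundant members differed between the genotypes by less than the spread between libraries. The remaining 5 of the top 8 (CG8602, spin, CG3036, CG14439 and NaPi-T) were called and are described with their groups. Together the 8 held 37.6% of the summed FPKM. Summed over all 80 members, the level was 1094, 1110.4 and 1123 FPKM in overexpressing libraries and 1139.8, 1133 and 1141 FPKM in control libraries, without overlap.

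All 15 calls were made among the 56 members with a mean of at least 5 FPKM, of which 26.8% were called, where 10.4% of all genes at that level were. Of the 22 tested members under 5 FPKM none was called by edgeR, DESeq2 or the reported limma fit. That fit called 4.21% of all tested genes under 5 FPKM. With a pseudocount of 10, and with quantile normalization, limma called CG15717, 1 of the 22. Of these 22, CG15717 alone had an unadjusted p under 0.05, where 605 of the 4208 tested genes under 5 FPKM had one.

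**Figure D2:**
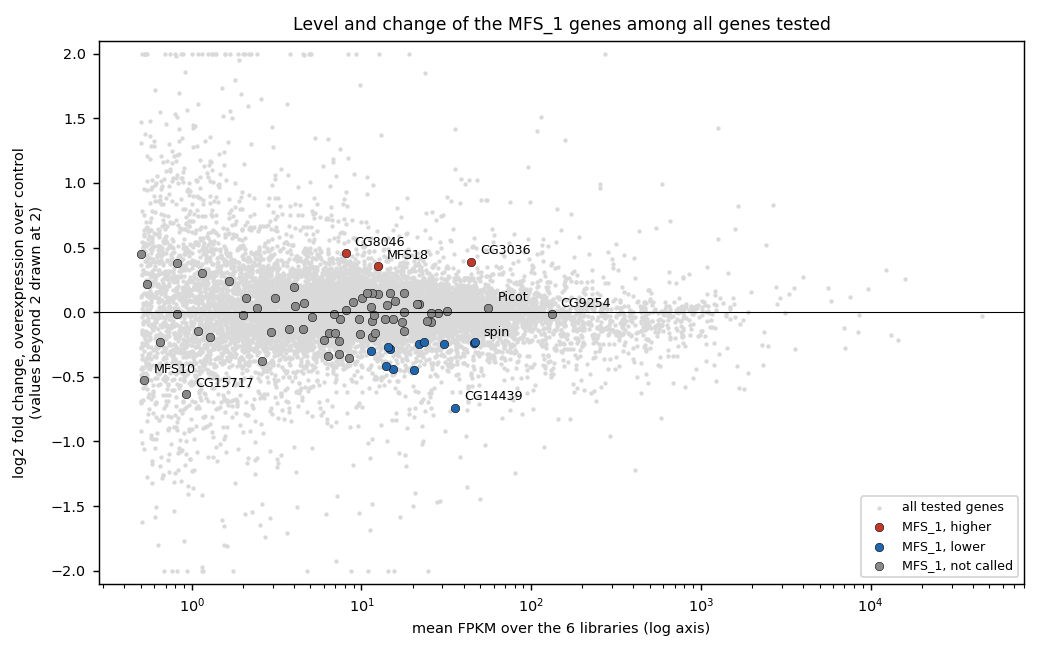
Mean FPKM over the 6 libraries (x axis, log scale) against log2 fold change, overexpression over control (y axis, values beyond 2 drawn at 2), for all 13196 tested genes in grey and the 78 tested MFS_1 genes in colour. The called members lie at 8.05 FPKM (CG8046) or higher, CG14439 stands lowest among them, and the abundant CG9254 and Picot lie near 0.

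Carriers of the monocarboxylate type (similar to the human SLC16 proteins, which move lactate, pyruvate, ketone bodies and related molecules) numbered 14, all tested, of which 4 fell and none rose, or 28.6% called, where 8.42% of all genes tested were called and 5.24% were lower. Their median log2 fold change was -0.05, the range ran from -0.30 to 0.15, and 8 were negative. The largest of the 4 falls was that of CG8034 (X, 19281232 to 19298162, minus strand), with 790.4, 798 and 839.8 normalized counts in overexpressing flies and 1089, 928 and 974 in control flies. The 3 overexpression libraries lay close together and all below the lowest control library, and the log2 fold change was -0.30 (standard error 0.068, limma adjusted p = 0.0177). Mct1 (X, 2189188 to 2205373, plus strand), which is named as monocarboxylate transporter, had 810.3, 701 and 774 normalized counts in overexpressing flies, against 956, 847 and 989.8 in control flies. The highest overexpression library and the lowest control library of Mct1 were not far apart, without overlap, and the log2 fold change was -0.29 (standard error 0.076, limma adjusted p = 0.0345). Part of this gene, 321 exonic bases or 10% of them, is shared with an antisense RNA, CR43637, which had 143 ± 31.5 normalized counts in overexpressing flies and 126 ± 16.6 in control flies and was not called.

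CG8468 (2R, 14219898 to 14230620, plus strand) had 965, 861 and 941 normalized counts in overexpressing flies and 1208, 1049.9 and 1085 in control flies. Again no library of one genotype reached those of the other, with a log2 fold change of -0.27 (standard error 0.069, limma adjusted p = 0.0294). The most abundant of the 4, CG13907 (3L, 877291 to 882013, minus strand), stood at 21.7 FPKM in overexpressing flies and 24.8 FPKM in control flies. Its normalized counts were 1741, 1799 and 1903 in overexpressing flies and 2169.8, 2198 and 2036 in control flies, separated by the gap between the third overexpression library and the third control library, and its log2 fold change was -0.23 (limma adjusted p = 0.0182).

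The other named carriers of this type were not called. kar (karmoisin, known from an eye colour mutant) averaged 698 ± 52.7 normalized counts in overexpressing flies and 669 ± 15.8 in control flies (SD over 3 libraries), 0.06 on the log2 scale. CG11665, now named hrm, averaged 1354 ± 62.2 normalized counts in overexpressing flies and 1298 ± 60.7 in control flies. Silnoon (Sln), another carrier of monocarboxylates, was sparse, with 151 ± 16.3 normalized counts in overexpressing flies and 141 ± 20.7 in control flies. The gene out (outsiders), which germ cells need on their way to the gonad, averaged 748 ± 61.3 in overexpressing flies and 674 ± 18.1 in control flies, with a log2 fold change of 0.15 and an adjusted p of 0.248 from limma. These 4 named genes thus had positive values between 0.06 and 0.15, none past the threshold. The remaining 6 of the type, all known by CG numbers, lay between -0.23 (CG10019) and 0.11 (CG8389).

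**Figure D3:**
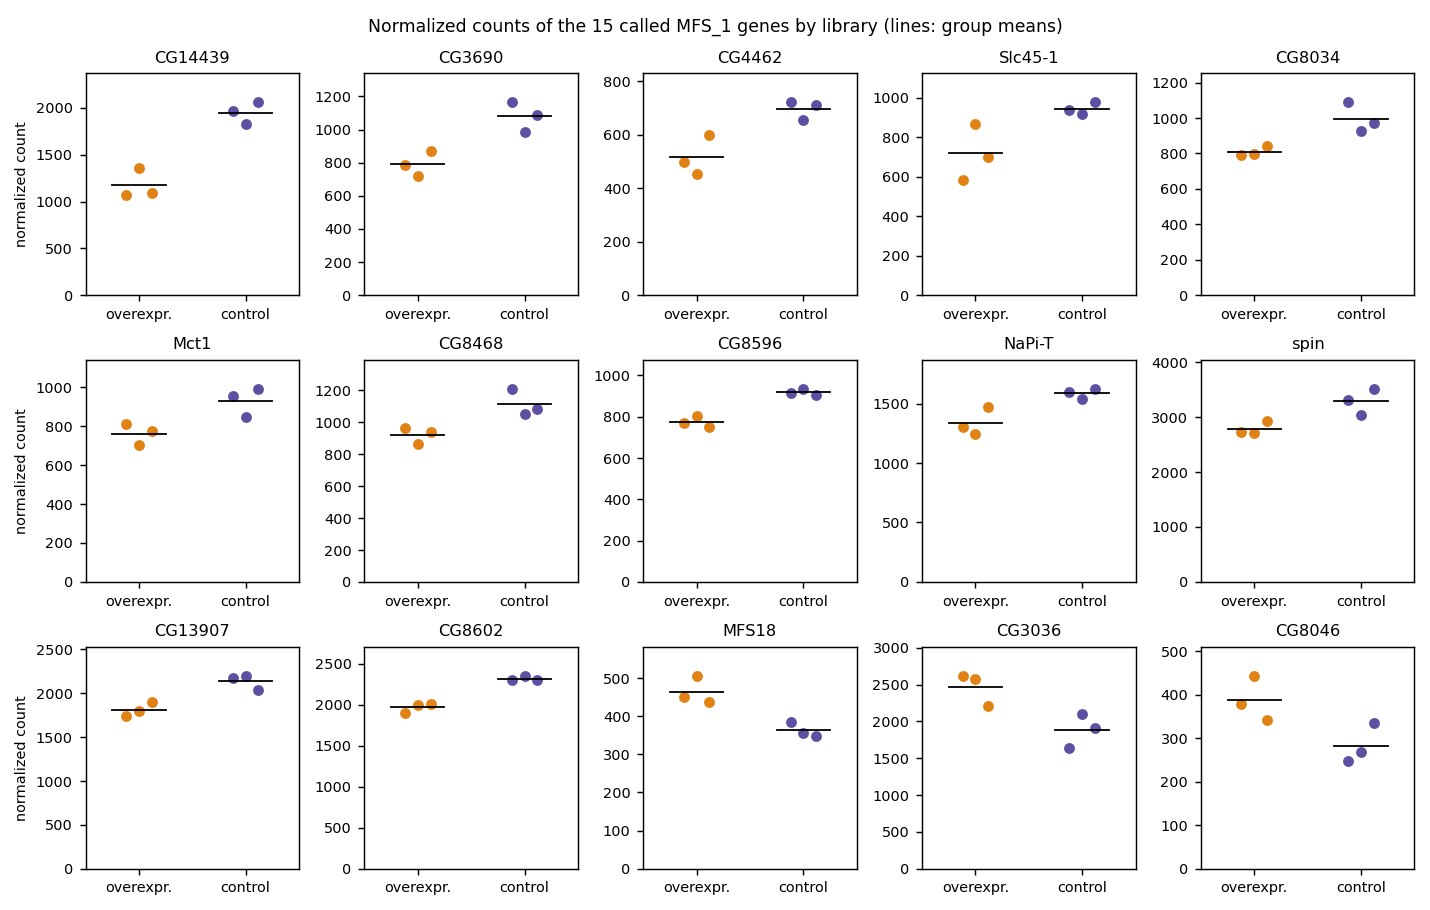
Normalized count (y axes, starting at 0) of the 15 called MFS_1 genes in each of the 3 overexpression libraries (orange, left) and 3 control libraries (violet, right), with lines at the group means. In each panel the groups do not overlap, and the gap is widest for CG14439, at 1067, 1357 and 1095 in overexpression libraries and 1965, 1825 and 2060.1 in control libraries.

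Carriers of the phosphate and glutamate type (similar to human SLC17 proteins) formed the largest listed group, with 20 members, of which 19 were tested. Of these, 1 rose and 1 fell, or 10.5% called, where 8.42% of all genes tested were called. The median log2 fold change was -0.02, with 8 positive and 11 negative values. NaPi-T (2R, 14842720 to 14845874, minus strand), a sodium-dependent phosphate cotransporter, fell to 1302, 1242 and 1475 normalized counts in overexpressing flies, against 1596, 1538 and 1621 in control flies. The third overexpression library came closest to the controls without reaching them, and the log2 fold change was -0.25 (standard error 0.065, limma adjusted p = 0.0358). MFS18 (2L, 4446670 to 4448635, minus strand), named for its superfamily, rose to 449.8, 505 and 438 normalized counts in overexpressing flies, against 384, 356 and 349 in control flies. All 3 overexpression libraries stood above the highest control library, with a log2 fold change of 0.35 (standard error 0.083, limma adjusted p = 0.0203). The annotation places 96 exonic bases of MFS18, 5.2% of them, opposite Elp3, a gene on the other strand. Elp3 itself averaged 517 ± 47.4 normalized counts in overexpressing flies and 260.3 ± 15.5 in control flies (log2 fold change 0.98, limma adjusted p = 4.4e-05). Strand use in counting is not stated by the sources read here, and without it reads of MFS18 and Elp3 could not be told apart over those bases, and the part of Elp3 in the MFS18 value was not tested.

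Among the other named genes of the group, dmGlut averaged 706 ± 105 normalized counts in overexpressing flies and 663 ± 47.2 in control flies. MFS3, MFS14, MFS15, MFS16, MFS17 and CG4288 (now MFS9), which are named for the superfamily and not for a substrate, had log2 fold changes between -0.19 (CG4288) and 0.14 (MFS17), and none was called. CG30272 (now MFS1) was sparse, at 54.9 ± 8.19 normalized counts in overexpressing flies and 46.3 ± 8.13 in control flies. CG8791 (now MFS12) rests on a single library, since its normalized counts were 684, 789 and 687 in overexpressing flies and 662, 1195 and 633 in control flies. The second control library stood far above the other 5, and the log2 fold change was -0.14 with it (standard error 0.18, limma adjusted p = 0.703) and 0.15 without it (limma adjusted p = 0.336). CG9826, at the 0.5 FPKM limit, had 23.8, 15.3 and 27.4 normalized counts in overexpressing flies and 16.3, 15 and 15.2 in control flies. Its log2 fold change of 0.45 was among the 4 largest without a call, the second overexpression library lay within the control range, and the adjusted p from limma was 0.439.

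MFS10 (X, 13129018 to 13134839, plus strand) was also sparse, with 29.8, 20.3 and 38.7 normalized counts in overexpressing flies and 39.6, 36.5 and 50.2 in control flies, and the groups overlapped. It shares its place with CG15717 (X, 13128952 to 13134565, plus strand), another member, which runs along the same strand. CG15717 had 54.6, 48.8 and 39.6 normalized counts in overexpressing flies and 77.2, 69.9 and 74.9 in control flies, with every overexpression library below every control library. The log2 fold changes were -0.63 for CG15717 (standard error 0.19, limma adjusted p = 0.0546, the member nearest to the threshold among those not called) and -0.53 for MFS10 (limma adjusted p = 0.279). They have 3329 exonic bases in common, 91.2% of those of CG15717 and 87.9% of those of MFS10, so the split of reads between these genes is uncertain and they are not separate measurements.

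Of the lysosomal and other named carriers, spin and Slc45-1 fell, and rtet had a log2 fold change of -0.22 with an adjusted p of 0.299 from limma. spin (spinster, 2R, 16124981 to 16138238, plus strand), an efflux carrier of lysosomes that is needed for their normal turnover, was the most abundant of them at 46.2 FPKM. Its normalized counts were 2735, 2705 and 2925 in overexpressing flies and 3316, 3044 and 3508 in control flies. The 3 overexpression values lay below the second control library, the lowest of its group, and the log2 fold change was -0.24 (standard error 0.059, limma adjusted p = 0.0267). Slc45-1 (3L, 9203065 to 9208853, minus strand), a carrier of sucrose, had 581, 868 and 701 normalized counts in overexpressing flies, against 936, 918 and 976 in control flies. Its second overexpression library came near the lowest control library, the spread among overexpressing flies was wide at 144 (SD) against 29.6 among control flies, and the log2 fold change was -0.41 (standard error 0.11, limma adjusted p = 0.0382). Without overexpression replicate 1 it was -0.27 (limma adjusted p = 0.107), and without overexpression replicate 2 it was -0.56 (limma adjusted p = 0.00124). rtet averaged 212 ± 28.7 normalized counts in overexpressing flies and 246 ± 16.9 in control flies.

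Of the 4 members of the vesicular type, VGlut, Vmat and VAChT load transmitters into synaptic vesicles, and prt is listed with them. None of the 4 was called by limma, edgeR or DESeq2, with 0 of 4 at an unadjusted p under 0.05. VGlut, the glutamate carrier of motor neurons, averaged 899.5 ± 78.8 normalized counts in overexpressing flies and 887 ± 30.6 in control flies, a log2 fold change of 0.02. Vmat, the carrier of dopamine, serotonin and other monoamines, averaged 997 ± 55.7 in overexpressing flies and 1008 ± 15.4 in control flies, a log2 fold change of -0.02. VAChT, the acetylcholine carrier, stood at 456 ± 22.4 in overexpressing flies and 499.8 ± 37.8 in control flies, with -0.13 on the log2 scale and an adjusted p of 0.361 from limma. prt (portabella), which is found in the mushroom bodies, was sparse at 47.5 ± 14.6 in overexpressing flies and 53.2 ± 8.34 in control flies. Summed markers of neurons ran from 74.9 to 82.6 FPKM in overexpressing flies and from 77.6 to 82.7 FPKM in control flies, and none of the 6 was called. The 4 members of the organic ion type (similar to SLC22 proteins) lay between -0.35 and 0.15 on the log2 scale, 3 of them negative. Other carriers of that type, such as Orct and Orct2, are not among the genes with the MFS_1 name and are not counted here. None of the 4 was called by edgeR, DESeq2 or the reported limma fit. Without overexpression replicate 2 limma called CG17751. The unadjusted p was under 0.05 for 1 of the 4, where it was for 2932 of the 13196 genes tested.

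**Figure D4:**
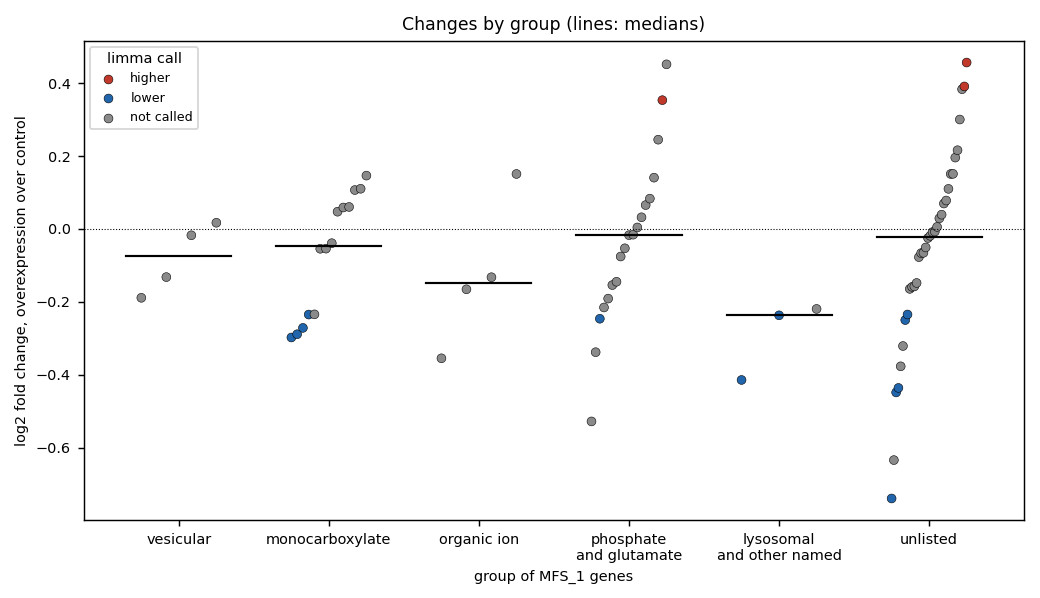
Log2 fold change, overexpression over control (y axis), of the tested MFS_1 genes by group (x axis), 1 point per gene, coloured by call, with lines at the group medians. The 4 vesicular and 4 organic ion carriers hold no called gene, 4 of the 14 monocarboxylate carriers are lower, and the widest range, from -0.74 to 0.46, is among the 35 members outside the listed groups.

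The 35 members outside these groups, of which 34 were tested, held 5 lower and 2 higher calls, with a median log2 fold change of -0.02. That is 20.6% called, where 8.42% of all genes tested were called and 5.24% were lower. CG14439 (X, 6747544 to 6755752, plus strand) had the largest change of the family and fell by 39.8%. Its normalized counts were 1067, 1357 and 1095 in overexpressing flies, against 1965, 1825 and 2060.1 in control flies. The second overexpression library was the highest of its group and still well below the lowest control library, and the log2 fold change was -0.74 (standard error 0.084, limma adjusted p = 0.00019). At 27.3 FPKM in overexpressing flies and 44.1 FPKM in control flies, it was the sixth most abundant member over all libraries. The antisense RNA CR44964, which shares 411 exonic bases or 16.9% of those of CG14439, was nearly silent, at 11.5 ± 7.68 normalized counts in overexpressing flies and 11 ± 6.23 in control flies. Within 100 kb of CG14439, 2 of 38 other tested genes (5.26%) were called, and the median log2 fold change of the 38 was 0.01.

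CG3690 (X, 948585 to 951900, minus strand), on the same chromosome, fell to 787, 718 and 869 normalized counts in overexpressing flies, against 1164, 988 and 1086 in control flies. The groups stood apart by the third overexpression library and the second control library, with a log2 fold change of -0.45 (standard error 0.08, limma adjusted p = 0.00424). In its surroundings of 100 kb, 5 of 27 other tested genes (18.5%) were called, 4 of them lower. Of all genes tested 8.42% were called, and of those on X 12.2%. The same share was 16.1% around MFS18 and 0% around Slc45-1 and CG13907, and no test of these windows was made. CG4462 (3R, 19921744 to 19925371, minus strand) had 497, 454 and 600.1 normalized counts in overexpressing flies and 721, 656 and 710.1 in control flies. The overexpression libraries were the more scattered of the groups, and all lay below the controls (log2 fold change -0.44, standard error 0.094, limma adjusted p = 0.013).

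CG8602 and CG8596 are neighbours on the left arm of chromosome 3 and both fell. CG8602 (3L, 7326273 to 7328842, minus strand), now named mrva (minerva), is known from macrophages that invade embryonic tissue and from the glycosylation of their proteins. It had 1906, 1997 and 2007 normalized counts in overexpressing flies, against 2298, 2351 and 2303 in control flies. The libraries of each genotype agreed closely, so that a log2 fold change of only -0.23 had an adjusted p of 0.00897 from limma. CG8596 (3L, 7341884 to 7345183, minus strand), now named Cln7, encodes a lysosomal protein whose human counterpart is mutated in a form of neuronal ceroid lipofuscinosis, a storage disease. Its values were 769.6, 802 and 748 normalized counts in overexpressing flies and 917, 934 and 907 in control flies, again tight within each genotype and without overlap (log2 fold change -0.25, standard error 0.058, limma adjusted p = 0.0184).

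The higher members of this set were CG3036 and CG8046. CG3036 (2L, 4892112 to 4903889, plus strand) rose to 2618, 2579.9 and 2207 normalized counts in overexpressing flies, against 1634, 2108 and 1918 in control flies. At 51 FPKM in overexpressing flies and 37.9 FPKM in control flies it was the most abundant of the 3 members that rose, and the third overexpression library lay only a little above the second control library (log2 fold change 0.39, standard error 0.088, limma adjusted p = 0.0163). CG8046 (2R, 9162037 to 9164967, minus strand) is similar to SLC46 proteins. In cultured fly cells such proteins have been linked to the delivery of bacterial cell wall fragments to the Imd pathway, the response to Gram-negative bacteria. Whether CG8046 has such a role, and whether its change bears on that pathway, was not tested. The members were not sorted by similarity to SLC46 proteins, so others may share it. The members beside CG8046 (CG30344, CG30345 and CG8008) were not called. CG8046 had 378, 443 and 343 normalized counts in overexpressing flies and 247, 268 and 336 in control flies. The lowest overexpression library and the highest control library nearly met, and the log2 fold change of 0.46 (standard error 0.12) had an adjusted p of 0.041 from limma, the closest to the threshold of the 15. CR34262, a pseudogene at 0.818 FPKM, had 16.9, 13.2 and 22.6 normalized counts in overexpressing flies and 9.14, 7.52 and 30.3 in control flies. Its groups overlapped, and its log2 fold change of 0.38 (limma adjusted p = 0.693) was 1 of the 4 largest without a call.

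Some members lie close together on the chromosomes. With gaps of at most 20000 bases between genes, 32 members fell into 11 neighbourhoods, the largest of 5 genes, and 48 had no member that near. Of the 32, 30 were tested, and 1 was called higher and 4 lower, or 16.7% called. Among the 48 others 20.8% were called, where 8.42% of all genes tested were. CG8602 with CG8596 was the only neighbourhood in which more than 1 member was called. In the neighbourhood of CG30344, CG30345, CG8008 and CG8046, the log2 fold changes were 0.01, -0.07, 0.15 and 0.46, and CG8046 alone was called. In that of CG8028, CG8034, CG8051 and out on the X chromosome they were -0.04, -0.30, -0.05 and 0.15, and CG8034 alone was called. CG4462 lay between CG4465 and CG4459, which had 0.22 and -0.15 and few reads. The 5 genes CG30272, CG30265, CG9825, CG9826 and CG3649 on 2R held both untested members and no call. MFS15, MFS14 and CG15096, which lie 82.7 to 96.4 kb from the locus of the overexpressed RNA, had log2 fold changes of -0.08, 0.07 and -0.08, and none was called.

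By chromosome arm, members on X held 4 calls, all lower, among 13 tested, or 30.8%, where 7.06% of all tested genes on X were lower and 12.2% had a call in either direction. On 2L 2 of 9 members were called, both higher, where 7.63% of all tested genes there had a call. On 2R 1 of 25 was higher and 3 lower, where 8.02% of all tested genes had a call. On 3L 4 of 11 were lower, where 7.61% of all tested genes had a call in either direction, and on 3R 1 of 20 was lower, where 7.58% had one. Nothing is read from these shares either.

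Related carriers outside the family are set beside it without a test of the difference. Of 24 sugar carriers, 2 rose, CG6484 by 0.30 and CG15406 by 0.23 on the log2 scale, and 1 fell, the trehalose carrier Tret1-1, at 7201 normalized counts in overexpressing flies, against 9465 in control flies (log2 fold change -0.39, limma adjusted p = 0.00272). Their median log2 fold change was 0.06. Of 7 tested organic anion transporting polypeptides, Oatp30B fell, at 2736 normalized counts in overexpressing flies, against 3093 in control flies (log2 fold change -0.18, limma adjusted p = 0.0494). Of the 56 tested genes with the Sugar_tr domain, 10.7% were called, 2 higher and 4 lower. Of the 24 sugar carriers 12.5% were called, and of the 7 organic anion transporting polypeptides 14.3%, where 8.42% of all genes tested were.

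Marker genes of some tissues moved with the genotypes in these whole flies. In bulk RNA, fewer cells of a type and less RNA per cell cannot be told apart. Beside the counts of called markers below, 3.18% of all genes tested were called higher and 5.24% lower. Summed markers of the fat body ran from 660 to 746 FPKM in overexpressing flies and from 828 to 911 FPKM in control flies, and 5 of 6 were called lower. Those of flight muscle ran from 1177 to 1356 FPKM in overexpressing flies and from 1404 to 1487 FPKM in control flies, with 3 of 5 lower. Those of photoreceptors ran from 3017 to 3341 FPKM in overexpressing flies and from 2428 to 2516 FPKM in control flies, with 4 of 6 higher. Markers of the male accessory gland ran from 2169 to 2332 FPKM in overexpressing flies and from 2477 to 2549 FPKM in control flies, with 1 of 5 lower. Midgut markers ran from 6772 to 7288 FPKM in overexpressing flies and from 5868 to 6733 FPKM in control flies, with 1 of 8 lower. For Malpighian tubule, glia, testis and neurons the ranges of the genotypes overlapped, although 1 of 8 tubule markers (ZnT35C) was called higher and 1 of 4 glia markers (Eaat1) lower. No marker of these lists was at 0 in every library, and the part of these tissues in the transporter values was not tested.

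The calls differed in how far they withstood other processing. CG14439 was called under each of 16 alternatives, with log2 fold changes from -0.85 to -0.68, and CG3690 and CG8602 under 15 of them. MFS18 was called in 13, CG3036, CG4462 and CG8034 in 12, CG13907 in 11, CG8046, CG8468, CG8596 and Mct1 in 10, and NaPi-T, Slc45-1 and spin in 9. Without control replicate 1 the calls were 1 higher and 3 lower members, and without control replicate 3 they were 1 higher and 4 lower. Without overexpression replicate 1 they were 1 higher and 6 lower, and without overexpression replicate 2 they were 1 higher and 9 lower, each time with 1 lower member that was not called otherwise (CG31321 and CG17751). Scaling to the library total left 3 higher and 6 lower members, with 40 negative and 38 positive values among the 78. The signs were thus nearly even, but the 13196 tested genes also moved up, from a median of 0.0059 to 0.046 (log2 scale). The member median moved from -0.052 to -0.011 and lay below that of the tested genes in both fits. Without limma's intensity trend CG14439 alone was called. None of the 15 called members changed its direction under any of the 16.

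**Figure D5:**
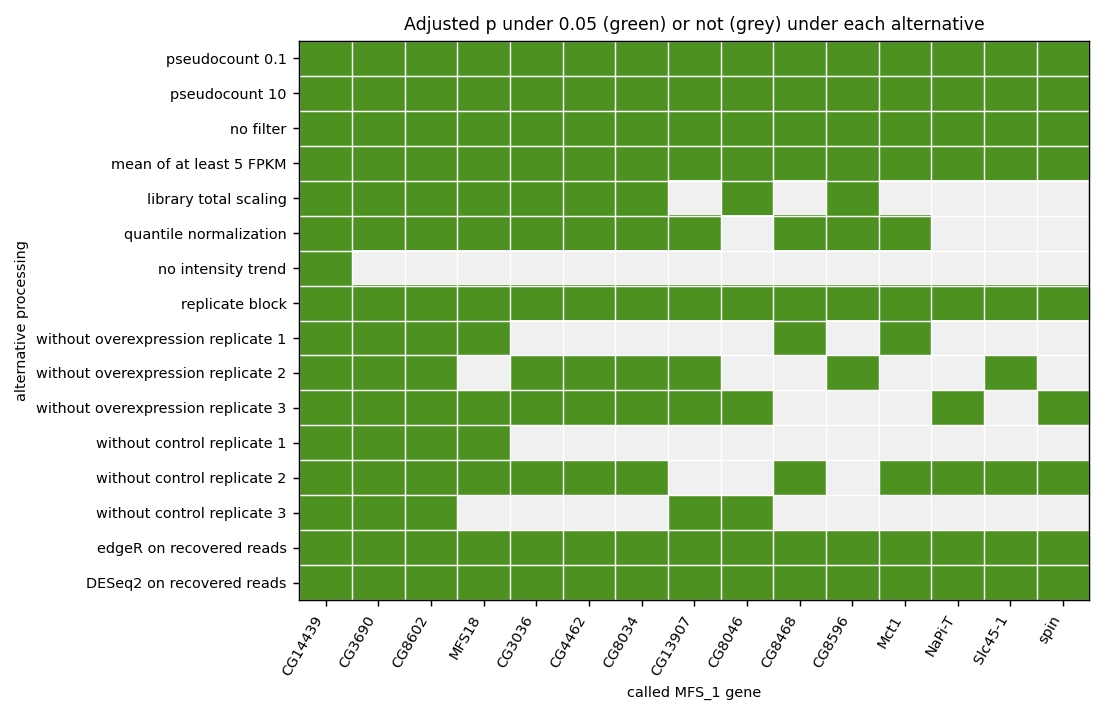
Call of each of the 15 MFS_1 genes (x axis) under each alternative processing (y axis), green where the adjusted p was under 0.05 and grey where it was not. CG14439 is green throughout, CG3690 and CG8602 are grey only without the intensity trend, and the columns with most grey, at 7 of 16, belong to NaPi-T, Slc45-1 and spin.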

How the data were processed

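RNA of adult male flies was sequenced in 3 overexpression and 3 control libraries. The submitters' processing notes name HISAT2 2.0.5, featureCounts 1.5.0-p3, DESeq2 and the build dm6. The authors deposited 1 table in which each library's values are a signal (counts over a size factor), although its name says FPKM. Whole reads were recovered for 100% of values (tolerance 0.01). The authors' own log2 fold change, p-value and adjusted p-value columns hold their comparison of the groups and were not used, and other deposited columns hold gene positions, lengths and domain names. Positions were those of the reference annotation (genome release 6, annotation release 115) for 77 of 80 members.

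The design assumed FPKM. Its test was kept on log2(normalized count + 1), with limma 3.58.1 (intensity trend, R 4.3.3) and Benjamini-Hochberg adjustment over the 13196 genes whose mean reached 0.5 FPKM, computed from the recovered reads. Fold changes on this scale understate the change of genes with few reads. Called means an adjusted p under 0.05. edgeR 4.0.16 and DESeq2 1.42.0 on the recovered reads were alternatives, with those named in the closing section. The fit was tested on simulated data in which every planted change was larger than that of any called member. How well it finds changes of the size reported here was not tested. Replicates differed by more than sampling noise (chi-square per degree of freedom 5.24 to 9.37). PCR reads without molecular identifiers are not independent molecules.

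Members, lists and tests were chosen with earlier results of these data known. Named are all called members, the 8 with the highest FPKM, the 4 largest uncalled changes, and members of the listed groups that carry a gene name. Neighbours in clusters and members at the ends of a range are named too. Older symbols stood for 9 members, among them MFS14. Python 3.11.15 and matplotlib 3.10.9 drew the figures. Sequences were not used here.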

Additional observations from a re-analysis of the deposited data

How the results depend on the processing

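Of 16 alternatives, pseudocounts of 0.1 and 10, no filter, a mean of at least 5 FPKM, edgeR and DESeq2 kept all 15 member calls, and quantile normalization kept 11. With scaling to the library total, 6 members were called lower and 632 genes higher, and 55.7% of calls were higher, against 37.8% in the reported fit. Without the intensity trend 0 members were higher, 1 was lower, and 94 and 99 genes were called higher and lower. Leaving out 1 library at a time gave 1 to 3 higher and 3 to 10 lower members, and 201 to 393 higher and 328 to 618 lower genes. The cause of these shifts was not tested, though fewer libraries enter each such fit. Correlations of same-numbered libraries of the genotypes were -0.034, 0.052 and -0.036, and those of differently numbered ones ran from -0.045 to 0.081. A replicate block kept 3 higher and 12 lower members. It called 517 genes higher and 846 lower, against 420 and 691 in the reported fit. Whether same-numbered libraries shared a batch was not tested. CG15717, uncalled, was called with a pseudocount of 10 and with quantile normalization. Some uncalled members near 0 turned sign. CG9254 had 0.025 with library totals and 0.037 with quantile normalization, and Vmat 0.023 with library totals. With a library left out, log2 fold changes ran from -0.023 to 0.19 (dmGlut), -0.0021 to 0.097 (kar), -0.31 to 0.15 (CG8791), -0.0070 to 0.16 (MFS14), -0.0059 to 0.21 (Sln), -0.046 to 0.086 (Picot), -0.048 to 0.025 (CG9254), -0.047 to 0.079 (VGlut), -0.063 to 0.0078 (Vmat) and -0.055 to 0.057 (CG30344). Depth limits most the members with few reads, such as CR34262 at 0.818 FPKM with a standard error of 0.47.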
